A study of Homo sapiens and Mus musculus with 4 samples.

Results

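The broadest ATF4 peaks of mouse bone marrow were the 1140 listed peaks of 5000 bp or more on chromosomes 1 to 19. They were chosen by width alone from the 81297 peaks that the mouse list holds on these chromosomes, and from 83961 peaks in both lists of the series. ATF4 was mapped with ChIP-seq, chromatin immunoprecipitation followed by sequencing, in which DNA bound by a protein is pulled down with an antibody and sequenced. The mouse list came from bone marrow cells of the strain C57BL/6, with 1 library precipitated with an anti-ATF4 antibody (Abcam, ab184909) and 1 input library taken without antibody. The age and sex of the mice, the number of animals and any treatment are not stated in the labels. The human leukaemia line KG1a was also profiled with 1 ChIP and 1 input library. Its list held only 873 peaks, against 83088 in the whole mouse list. Of the KG1a peaks 0 had this width and the widest was 1183 bp, where 1.40% of the mouse peaks on chromosomes 1 to 19 had it. There was 1 library per group, so nothing below has a replicate check, and no test between groups was possible. Marker genes of marrow cells could not be checked, since the list holds positions only and a table of mouse genes was not used here.

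ATF4 is a basic leucine zipper transcription factor whose translation rises when the initiation factor eIF2 is phosphorylated under amino acid shortage or other stress. It binds DNA as a dimer, often with a C/EBP protein, and is known for switching on genes of amino acid supply, tRNA charging and redox balance. A factor that binds short sequences usually gives narrow peaks, while stretches of many kilobases are more familiar from histone marks. The mark or factor content of the stretches described here was not measured in this series, and no DNA sequence of the mouse genome was used.

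The broad peaks were few but held a large share of the listed bases. They covered 7.93 Mb of the 74.6 Mb in all peaks of chromosomes 1 to 19. That is 10.6% of the bases in 1.40% of the peaks, a proportion that follows from choosing by width. They took up 0.323% of the length between the chromosome start and the last listed peak, summed over the 19 chromosomes.

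Many broad peaks were close to the limit of the rule, but 666 of them (58.4%) were at least 6000 bp wide. The median width was 6290 bp and the middle 50% lay between 5504 and 7790 bp, against a median of 545 bp for all peaks on these chromosomes. There were 474 peaks from 5000 to under 6000 bp, 256 peaks of at least 8000 bp, 98 of at least 10000 bp and 8 of at least 15000 bp. The counts passed the limit with no step, with 69 peaks less than 100 bp above it and 64 up to 100 bp below it. The narrowest members were 5004 bp wide, on chromosome 19 from 54092261 to 54097264 and on chromosome 2 from 88463885 to 88468888 (GRCm38, as are all mouse positions here). The widest peak left out was 4998 bp, on chromosome 7 from 144884136 to 144889133.

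**Figure D1:**
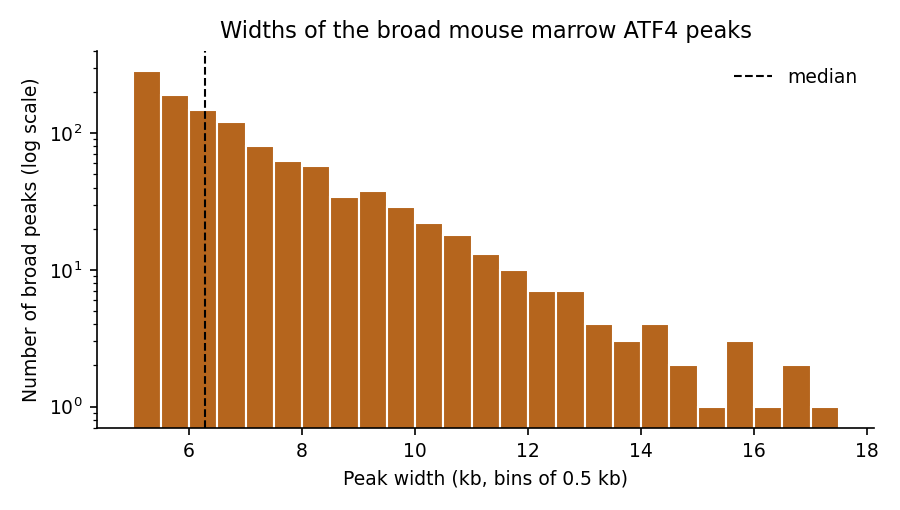
Number of broad peaks (log scale) by width in kb, in bins of 0.5 kb, with the median as a dashed line. Counts fall with width, apart from small steps up where counts are low, from the limit of the rule to the widest peak of 17247 bp.

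The widest peaks lay on many different chromosomes. The widest of all, 17247 bp, ran on chromosome 5 from 117020303 to 117037549. It stood alone, with 14762 bp to the nearest listed peak of any width and 544127 bp to the next broad one. The second, 16707 bp on chromosome 18 from 72377072 to 72393778, had a listed peak 1116 bp away. The next 2 in width formed a pair on chromosome 17. They ran from 26387098 to 26403694 and from 26303669 to 26320018, 67079 bp apart, and both had a narrower peak close by, at 302 and 1649 bp. Next was a peak of 15983 bp on chromosome 8, from 126790917 to 126806899. Another 2 were on chromosome 2, from 157396800 to 157412606 and from 107823040 to 107838590. The first of these lay 49474 bp from another broad peak, while the second had no listed peak at all within 18022 bp. The widest peaks thus differed in their surroundings, with the nearest listed peak anywhere from 302 bp to over 10 kb away.

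Other wide peaks repeated both arrangements. On chromosome 3 the peak from 70199334 to 70214238, 14905 bp wide, had a narrower peak 317 bp away. No other broad peak lay within 8.14 Mb of it. On chromosome 2 the peak from 83587269 to 83601543, 14275 bp wide, had its nearest listed peak at 19899 bp. On chromosome 11 the peak from 57268856 to 57283833, 14978 bp wide, had another broad peak 47327 bp away and belonged to a group of 3. On chromosome 9 the peak from 122035047 to 122049168 was 14122 bp wide, with a broad neighbour at 28357 bp. On chromosome 5 a peak of 15136 bp ran from 131650634 to 131665769, with a listed peak 451 bp away, and one of 13945 bp ran from 74844435 to 74858379, with none within 19408 bp. The others of the widest 15 were a peak of 14340 bp on chromosome 3, from 27220100 to 27234439, and a peak of 14303 bp on chromosome 6, from 121278892 to 121293194. Both had a listed peak within 1 kb, at 929 and 437 bp.

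Every one of the 19 chromosomes held broad peaks, but at different densities. Chromosome 5 had the most with 112, followed by chromosome 11 with 105 and chromosome 2 with 100. Chromosome 16 had the fewest with 25. Per Mb, chromosome 11 held 0.861 and chromosome 5 held 0.739 broad peaks, while chromosome 3 held 0.244, chromosome 16 held 0.255 and chromosome 14 held 0.256. The density on chromosome 11 was 3.53 times that on chromosome 3 for broad peaks, where it was 1.68 times for all listed peaks. Chromosomes 5 and 11 together carried 19.04% of the broad peaks and 13.9% of all peaks. Chromosomes 3, 14 and 16 together carried 8.42% of the broad peaks and 12.6% of all peaks.

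The order of the chromosomes was much the same for broad peaks and for all peaks. Across the 19 chromosomes, broad peaks per Mb and all peaks per Mb had a Spearman rho of 0.92, given as a description, since broad peaks are part of all peaks and every point comes from the same library pair. Per 1000 listed peaks the range was narrower, with 19.9 on chromosome 11 (Wilson 95% interval 16.5 to 24.0) and 18.5 on chromosome 5 (15.4 to 22.2), against 14.02 over all 19 chromosomes. The lowest were 9.27 on chromosome 16 (6.28 to 13.6), 9.39 on chromosome 14 (6.66 to 13.2) and 9.48 on chromosome 3 (6.94 to 12.9). The intervals of chromosomes 11 and 3 do not overlap, while chromosomes next to each other in this order overlap. These intervals cover counting error only and treat neighbouring peaks as independent. The width of a typical broad peak varied little, with chromosome medians from 5628 bp on chromosome 19 to 6622 bp on chromosome 2.

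**Figure D2:**
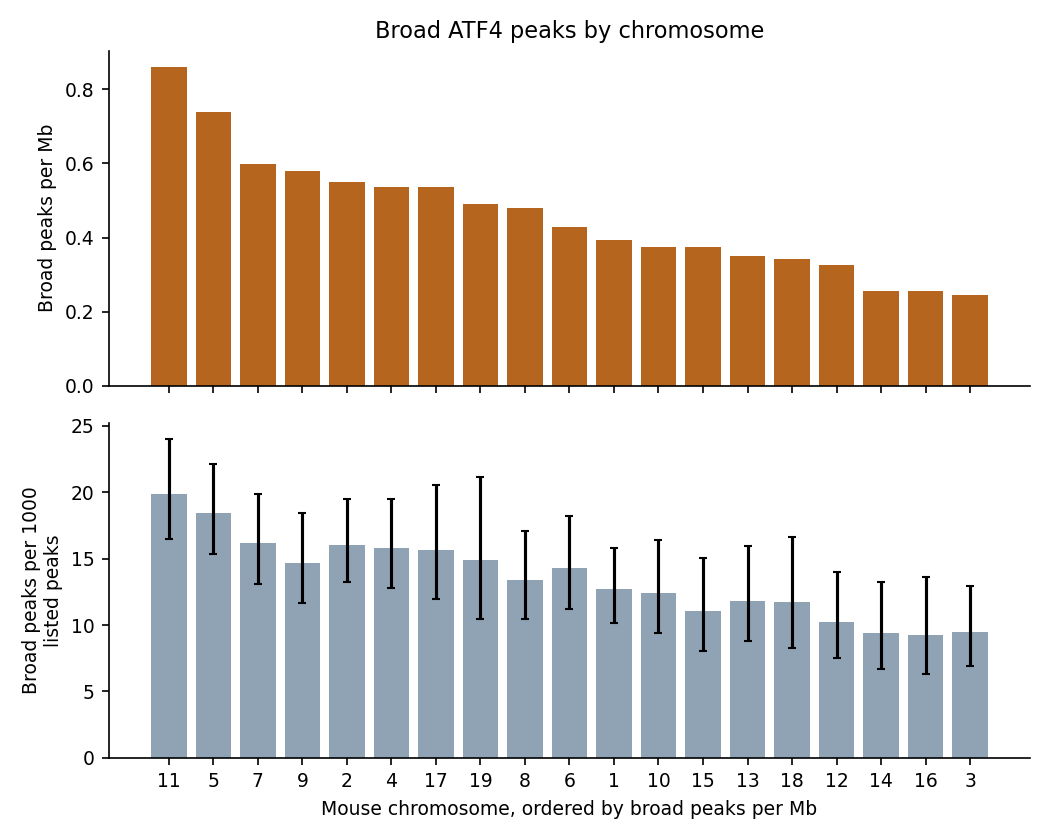
Broad peaks per Mb (upper panel) and per 1000 listed peaks (lower panel, bars with Wilson 95% intervals) on chromosomes 1 to 19, ordered by the upper panel. Chromosomes 11 and 5 are highest in both panels, and chromosomes 3, 16 and 14 are the lowest 3 in both.

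Broad peaks were found more towards the high-coordinate ends of chromosomes. Mouse chromosomes have their centromere at the low-coordinate end. With each chromosome divided into 5 equal stretches up to its last listed peak, 383 broad peaks (33.6%) lay in the last and 130 (11.4%) in the first. Of the peaks of 2000 to under 5000 bp, 29.6% lay in the last stretch and 13.1% in the first. Of the peaks under 2000 bp the shares were 24.9% and 15.5%. Over all listed peaks on these chromosomes the shares were 25.4% and 15.2%, so the gradient was not particular to broad peaks. The last stretch held more broad peaks than the first on 17 of the 19 chromosomes and fewer on 2, chromosomes 13 and 16. Counts by chromosome were not made for all listed peaks, so these have no level to be set against. On chromosome 13 the second stretch stood out with 19 broad peaks, against 3 in the last. On chromosome 5 the last 2 stretches held 40 and 46 broad peaks, against 4 in the first, and on chromosome 4 the last held 42, against 2 in the first. The first listed peak of a chromosome began at 3.003 to 4.18 Mb, so the first stretch includes at least that length without any listed peak.

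Seen in windows of 1 Mb, broad peaks tended to lie where more peaks were listed, but some crowded windows held few. Of 2406 windows with at least 1 listed peak, 794 (33.0%) held a broad peak and 234 held 2 or more. Windows with a broad peak held a median of 39 listed peaks of any width, and those without held 28. The 25 windows with 4 or more broad peaks held a median of 76. The most broad peaks in a window were 7, on chromosome 5 from 114 to 115 Mb, where 68 peaks were listed. Windows on chromosome 5 from 119 to 120 Mb, on chromosome 11 from 114 to 115 Mb and on chromosome 5 from 112 to 113 Mb held 6 broad peaks each, among 111, 85 and 61 listed peaks. The window with most peaks of any width, on chromosome 5 from 137 to 138 Mb, held 5 broad ones among 129. Next in total were 115 peaks on chromosome 5 from 133 to 134 Mb, of which 0 were broad, and 112 on chromosome 2 from 165 to 166 Mb, of which 1 was broad. On chromosome 4 the window from 133 to 134 Mb held 102 peaks and likewise 0 broad ones.

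Most broad peaks had no other broad peak within 100 kb, but by their medians they lay closer to one than narrower peaks did. Measured from edge to edge, the nearest other broad peak lay a median of 484 kb away, with an interquartile range of 141 kb to 1.31 Mb. The median distance to a broad peak was 553 kb for peaks of 2000 to under 5000 bp and 699 kb for peaks under 2000 bp. Within 1 kb of another broad peak lay 16 of the 1140, within 10 kb 46 and within 100 kb 233. The last number is 20.4% (Wilson 95% interval 18.2 to 22.9%), where 13.2% of all listed peaks on these chromosomes had a broad peak other than themselves within 100 kb. The share was 16.6% (15.8 to 17.6%) for peaks of 2000 to under 5000 bp and 12.7% (12.5 to 13.0%) for peaks under 2000 bp. Chromosomes 5 and 11 supplied 90 of the 233. Without them the share was 15.5% for broad peaks, 14.9% for peaks of 2000 to under 5000 bp and 11.8% for peaks under 2000 bp. Leaving out chromosomes 5 and 11 was chosen after the data were seen. They had the highest shares of broad peaks with such a neighbour, so a lower share without them follows from the choice. No intervals were computed without them, so no conclusion is drawn there on the excess over peaks of 2000 to under 5000 bp. The share of broad peaks with such a neighbour was 43.8% on chromosome 11 and 39.3% on chromosome 5. The 32 broad peaks of chromosome 14 were all more than 100 kb apart. These chromosomes also differed in density, with 0.861, 0.739 and 0.256 broad peaks per Mb on chromosomes 11, 5 and 14. The share for other peaks of the same chromosome was not computed, so closeness and density cannot be told apart here.

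The most isolated members were far from any other broad peak. On chromosome 18 the peak from 3993086 to 3998731 had none within 16.7 Mb. On chromosome 13 the peak from 116620600 to 116626006 had none within 15.5 Mb, and on chromosome 4 the peak from 11624320 to 11631954 had none within 10.4 Mb. Each of these peaks was the first or the last broad peak of its chromosome, so its distance was measured on a single side. The widths of these peaks, 5646, 5407 and 7635 bp, were ordinary for broad peaks.

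The closest pairs were separated by well under 1 kb. The smallest gap, 328 bp, was on chromosome 13 between the peaks from 41294432 to 41302348 and from 41302677 to 41307758. On chromosome 5 the peaks from 141745405 to 141754670 and from 141755013 to 141766103 were 9266 and 11091 bp wide and 342 bp apart, so that both together spanned 20699 bp. Also on chromosome 5, peaks of 9359 and 6927 bp from 88343596 to 88352954 and from 88353342 to 88360268 were 387 bp apart and spanned 16673 bp. On chromosome 1 a pair of 7142 and 5349 bp, from 79283558 to 79290699 and from 79291063 to 79296411, was 363 bp apart. On chromosome 8 a pair of 6204 and 6020 bp, from 13542024 to 13548227 and from 13548618 to 13554637, was 390 bp apart. These gaps were close to the smallest gap between any 2 listed peaks on chromosomes 1 to 19, 268 bp, so these pairs are nearly as close as listed peaks can be in this list.

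When broad peaks up to 100 kb apart were joined, 907 remained alone, 176 formed 88 pairs, 42 formed 14 groups of 3, and there was 1 group each of 4, 5 and 6. The group of 6 lay on chromosome 11 from 114329309 to 114600140. Its members were 6876, 5956, 6025, 7987, 5032 and 5812 bp wide, with gaps of 19.5, 37.7, 94.7, 0.651 and 80.7 kb. Together they filled 13.9% of the 271 kb span, and 29 narrower peaks lay between them. The group of 5 lay on chromosome 5 from 119359852 to 119607103, with widths of 6116, 8188, 6056, 5697 and 5511 bp. It held 37 narrower peaks, and listed peaks of any width filled 33.9% of its 247 kb. The last gap in this group was 99.5 kb, just under the limit for joining.

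The group of 4 was the most compact of these. It lay on chromosome 11 from 117560446 to 117635713, with members of 10154, 7652, 5304 and 7838 bp. They filled 41.1% of the 75.3 kb span, with 5 narrower peaks between them. Of the 17 groups of 3 or more, 8 were on chromosome 11 and 4 on chromosome 5, with 2 on chromosome 2 and 1 each on chromosomes 4, 9 and 17. The densest group of 3, on chromosome 11 from 55153371 to 55199252, had 46.8% of its 45.9 kb in broad peaks. The group of 3 on chromosome 5 from 113409667 to 113485324 held only 1 narrower peak in 75.7 kb.

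**Figure D3:**
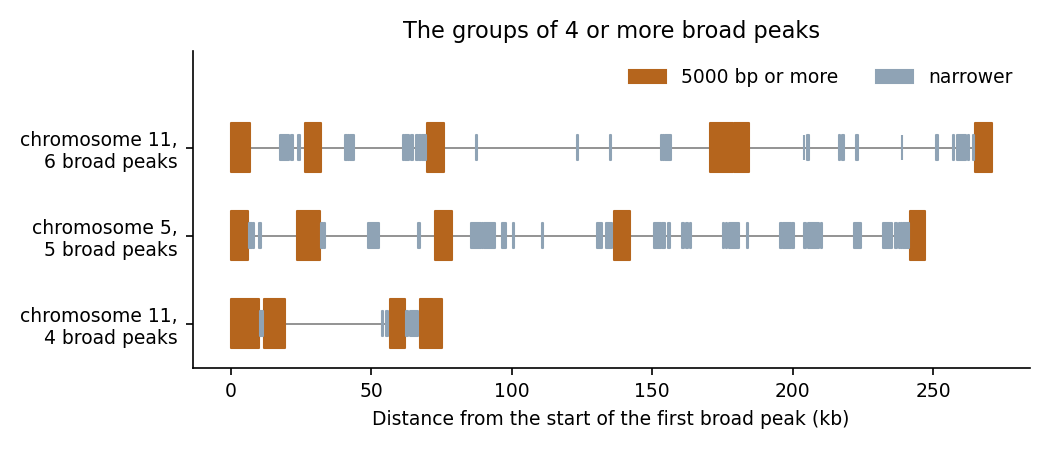
The 3 groups of 4 or more broad peaks, drawn to scale by distance in kb from the start of the first broad peak, with broad peaks as tall bars and narrower listed peaks as short bars. The chromosome 11 group of 4 is packed into 75.3 kb, while the chromosome 11 group of 6 and the chromosome 5 group of 5 spread over 271 and 247 kb. Among the group of 6, 1 pair is 0.651 kb apart and touches at this scale.

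Broad peaks often had another peak directly beside them. Another listed peak lay under 1 kb away for 674 of the 1140, or 59.1% (Wilson 95% interval 56.2 to 61.9%), where 46.9% of all peaks on these chromosomes had one. The share was 57.3% (56.1 to 58.5%) for peaks of 2000 to under 5000 bp and 45.8% (45.4 to 46.1%) for peaks under 2000 bp. The interval of the broad peaks overlaps that of the class from 2000 to under 5000 bp. At the other extreme, 213 broad peaks (18.7%) had no listed peak within 10 kb, against 19.3% of peaks of 2000 to under 5000 bp and 23.4% of peaks under 2000 bp.

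The surroundings of broad peaks fell off within about 10 kb. From 0 to 1 kb beyond the edges of a broad peak, 17.3% of bases lay inside another listed peak. The smallest gap between listed peaks on chromosomes 1 to 19 was 268 bp, so part of this bin could lie in no peak. From 1 to 2 kb the share was 21.3%. From 7.5 to 10 kb the share was 6.17%, and from 75 to 100 kb it was 4.95%. Around peaks of 2000 to under 5000 bp the same distances gave 15.9, 20.6, 5.59 and 4.45%, and around peaks under 2000 bp they gave 11.3, 16.8, 4.88 and 3.80%. Over all 19 chromosomes 3.03% of the length lay in a listed peak. The profile of the broad peaks thus followed that of the peaks of 2000 to under 5000 bp closely, and both stood above the narrow class in every distance bin plotted.

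**Figure D4:**
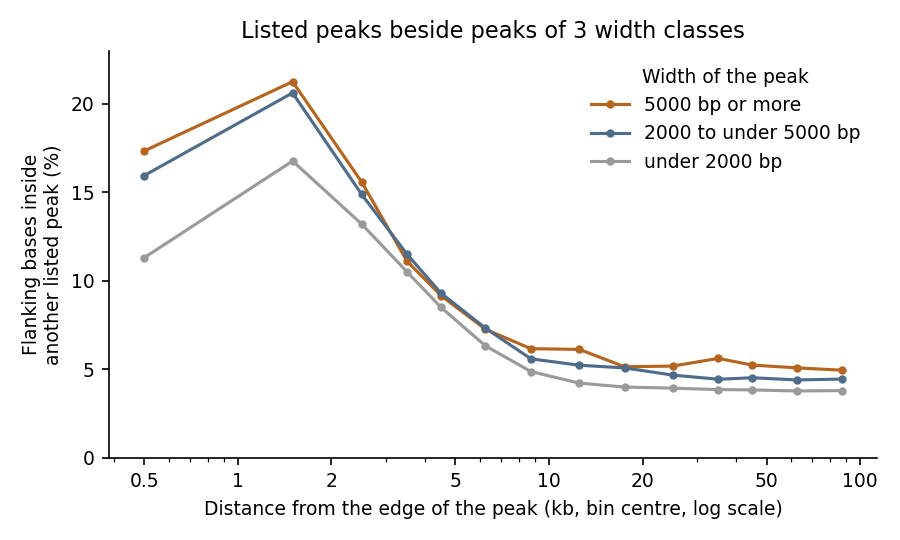
Share of flanking bases inside another listed peak (percent) against distance from the peak edge (kb, log scale) for peaks of 5000 bp or more, 2000 to under 5000 bp and under 2000 bp. The upper 2 lines run close together, peak at 1 to 2 kb (21.3 and 20.6%) and level off near 5 and 4.5%.

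Joining listed peaks of any width up to 1 kb apart put the 1140 broad peaks into 1128 stretches. Of these, 466 held a single peak, 662 held 2 or more, and 12 held more than 1 broad peak. The median stretch was 7889 bp long, 299 stretches (26.5%) reached 10 kb, and peaks filled 93.8% of their joint length. The longest was 27461 bp, on chromosome 9 from 120451763 to 120479223, made of 7 peaks of which 1 was broad. The next were 25361 bp on chromosome 4 from 116470387 to 116495747, with 5 peaks, and 24795 bp on chromosome 11 from 55145575 to 55170369, with 7 peaks of which 2 were broad. Joining also produced 2011 stretches of 5000 bp or more that contained no broad peak, more than those that did.

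Broad peaks stood early in the deposited order, with their highest share a little after its start. The list carries no score, and what its order reflects is not stated in the sources used here. Places count all 83088 mouse peaks. Width and place come from the same list, so this is a description. The median place of a broad peak was 3981, against 8772 for peaks of 2000 to under 5000 bp and 45288 for peaks under 2000 bp. The first 10% of the list, 8308 places, held 1021 broad peaks, or 89.6%. In places 1 to 500, 33 of 493 peaks on chromosomes 1 to 19 were broad (6.69%), against 1.40% over the whole list on these chromosomes, and the median width of the 493 was 862 bp. The share was 8.40% in places 501 to 1000, 14.9% in places 1001 to 2000 and 18.05% in places 2001 to 4000. In places 4001 to 8000 there were 433 broad peaks among 3936, and beyond place 16000 it was 0.0244%, or 16 peaks.

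**Figure D5:**
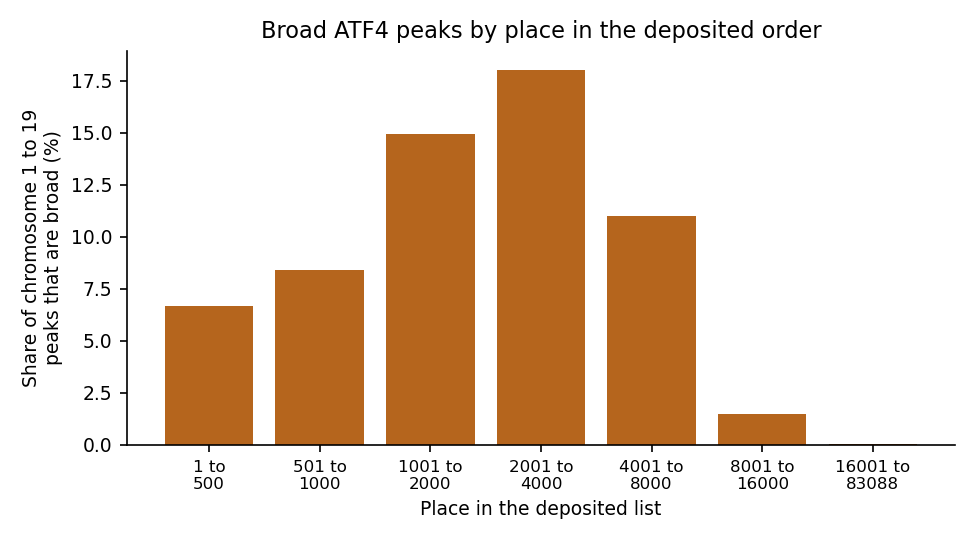
Share of the peaks on chromosomes 1 to 19 that are 5000 bp or wider (percent) in 7 stretches of the deposited order. The share is highest in places 2001 to 4000 (18.05%) and lower both at the start (6.69% in places 1 to 500) and after place 8000 (1.49% in places 8001 to 16000).

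Wider members stood earlier by their medians, but the relation was weak. Among the broad peaks, width and place had a Spearman rho of -0.28. Peaks of at least 10000 bp ranged from place 10 to place 17149. The median place was 2498 for peaks of at least 10000 bp, 3443 for those of 8000 to under 10000 bp, 3860 for those of 6000 to under 8000 bp and 4752 for those under 6000 bp. The earliest broad peak, in place 10, was 11255 bp wide on chromosome 5 from 121027866 to 121039120. Place 12 was a peak of 6009 bp on chromosome 17 from 56529704 to 56535712, and place 24 belonged to a chromosome 18 peak of 11595 bp, from 61466359 to 61477953. A peak barely past the limit, 5010 bp on chromosome 7 from 49255014 to 49260023, stood in place 91. The widest peak of all was in place 499 and the second widest in place 3580. The last was a peak of 5913 bp on chromosome 1 from 157685812 to 157691724, in place 28571.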

How the data were processed

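ATF4 ChIP and input libraries of mouse bone marrow were each represented by 1 sample, and the labels name 1 peak list made from both. The name of that list numbers both the ChIP and the input. What the numbers stand for, and whether other runs exist, is not stated. The submitters' processing notes name CASAVA (1.4), the aligner Bowtie2, the peak caller MACS2 and deepTools, and the build GRCm38, without settings or a peak threshold. The deposited list has 3 columns, chromosome, start and end in bases, and no score, so read depth is unknown and the precision of a single peak cannot be stated. How the caller joined nearby signal is not stated, and its part in peak width was not tested. Starts were read as counted from 0 and printed counted from 1.

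Peaks with end minus start of at least 5000 bp on chromosomes 1 to 19 were taken. The members and lists were chosen with earlier results of these data known. Chromosome length was the highest listed position. Gaps were measured edge to edge. No test was run, since peaks of 1 list are not replicates; Wilson 95% intervals cover counting error only. The design foresaw mouse gene lists, gene starts, marker genes, motifs and a rule for naming genes. These need a mouse annotation and genome, which were not used here, so no gene is named and the widest 15 and closest regions are given by position. The count of broad KG1a peaks used the human list on GRCh38. The code was tested on 20 simulated lists with planted groups. Python 3.11.15, numpy 2.4.6, pandas 2.3.3, scipy 1.17.1 and matplotlib 3.10.9 were used.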

Additional observations from a re-analysis of the deposited data

Results flagged for a closer look

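The mouse list also holds 12 peaks of 5000 bp or more on chromosome X, which lies outside the chromosomes described above. They are listed here because they are in none of the counts of broad peaks above, although the list totals and places include them. Chromosome X held 1577 listed peaks of any width. The broad ones amount to 7.61 per 1000 listed peaks and 0.0706 per Mb on chromosome X, against 14.02 and 0.464 on chromosomes 1 to 19. All listed peaks per Mb were not computed for chromosome X, so how far peaks of every width share the difference per Mb is not given. The widest, 10930 bp, ran from 14688122 to 14699051. A pair of 6196 and 6229 bp lay close together, from 10450760 to 10456955 and from 10501360 to 10507588. The median place of all 12 broad peaks of chromosome X in the list was 6138. Unplaced scaffolds, chromosome Y and the mitochondrial genome, with 214 peaks, had 0 of this width, and the widest there was 4846 bp.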

How the results depend on the processing

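The number of broad peaks follows the width limit directly. It was 2025 at 4000 bp, 666 at 6000 bp and 256 at 8000 bp, against 1140 at 5000 bp, and 3139 when peaks under 1000 bp apart were merged first. The bases covered were 11.9 Mb at 4000 bp, 5.35 Mb at 6000 bp, 2.56 Mb at 8000 bp and 23.3 Mb after merging, against 7.93 Mb. The share with another broad peak within 100 kb was 28.9% at 4000 bp, 14.3% at 6000 bp and 7.03% at 8000 bp, against 20.4%. The number of peaks also changes with the limit, and its part in this share was not tested. At the limit of 5000 bp the share was 13.2% within 50 kb, 31.5% within 200 kb, 15.5% without chromosomes 5 and 11 and 35.8% after merging. The ratio of chromosome 11 to chromosome 3 was 3.53 per Mb and 2.10 per 1000 peaks. With chromosome X included there were 1152 broad peaks, 8.01 Mb and a share of 20.4%, and measured from centre to centre the share was 19.3%. Including chromosome X, centre-to-centre distances, leaving out chromosomes 5 and 11 and merging for the bases and the share were chosen after the data were seen. Alternatives on gene overlap, gene starts and sequence were not run, and chromosome lengths other than the highest listed position were not used. No paired analysis was possible because each group has 1 library and no result comes from a test. Read depth is unknown, and its part in peak width was not tested.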
